A study of Mus musculus with 8 samples.

Results

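The voltage-gated sodium channel, voltage-gated calcium channel and HCN channel genes were followed in the hippocampus of female mice after chronic treatment with dehydroepiandrosterone (DHEA), a steroid precursor of androgens and oestrogens. Members were chosen by gene symbol, as pore-forming and beta subunits of sodium channels (Scn), alpha1, alpha2delta, beta and gamma subunits of calcium channels (Cacn) and the HCN channel genes (Hcn). This gave 44 of the 29442 genes in the count table, and all 44 had at least 1 count and were tested. Female C57BL/6 J mice aged 6 to 8 weeks received DHEA at 30 mg/kg/day or its vehicle, sesame oil, by subcutaneous injection for 21 days, and went through behavioral tests before dissection. No genetic change is described for either group. Poly(A) RNA of the hippocampus was sequenced from 4 libraries labelled DHEA (HipR3, HipR4, HipR7 and HipR11) and 4 labelled sesame oil (HipR5, HipR9, HipR10 and HipR16). The study's methods name ventral hippocampal tissue and give n = 4 in each group. The labels do not say which mouse each library came from, so p-values measure the spread between these libraries.

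The libraries labelled DHEA held 35748416 to 38038361 counts and those labelled sesame oil 31483772 to 35418297, so every DHEA total was above every sesame oil total. Channel genes took 0.421% to 0.484% of the counts of a library. A positive fold change below means more of a transcript with DHEA, by the labels. The study's own list of changed genes, some of which it followed by qRT-PCR in further hippocampal samples, carries the opposite sign to these labels for every gene compared. By the study's account, that qRT-PCR ran in the direction of its own list. Those further samples were not analysed here. Groups are therefore named by their labels, and every direction would turn if the labels were exchanged.

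HipR3 and HipR4 stood apart from the other 6 libraries. Across genes, the correlation of a library's centred log2 CPM (counts scaled to a common library total) with log2 gene length was -0.146 in HipR3 and -0.136 in HipR4, and 0.0210 to 0.127 in the other libraries. Channel genes are long, with a median length of 6609 bases against 2864 for all genes, so results that rest on these libraries are also given without them. The correlation with GC content split the groups. It was -0.0576, -0.0810, -0.0681 and -0.00109 in HipR3, HipR4, HipR7 and HipR11, and 0.0614, 0.102, 0.0377 and 0.0542 in HipR5, HipR9, HipR10 and HipR16. With an offset for GC content, Cacna1h, Cacna1i and Cacnb1 of the genes described below lost an unadjusted p under 0.05 and Scn9a gained it. With an offset for gene length, Cacna1c lost it (unadjusted p = 0.0574).

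Sodium channels carry the fast current of the action potential through one alpha subunit with accessory beta subunits. Calcium channels turn depolarisation into calcium entry, and their alpha1 subunit sets the current class, of which L-type channels couple to gene expression and plasticity, P/Q- and N-type channels trigger transmitter release, and T-type channels open near rest and support burst firing. The alpha2delta and beta subunits bring the alpha1 subunit to the membrane and shape its gating. HCN channels open on hyperpolarisation and set the resting potential and dendritic integration of pyramidal neurons.

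The tissue carried the genes of central neurons and lacked those of muscle and sensory ganglia. On the length-scaled FPKM scale, Scn2a, the alpha subunit of excitatory axons, made up 46.4% ± 2.17 of the summed sodium channel alpha level (SD, n = 8). Scn8a, the main alpha subunit of the mature axon initial segment, made up 29.4% ± 1.16. Scn1a, prominent in inhibitory interneurons, made up 18.3% ± 1.27, and Scn3a, abundant before birth, 4.28% ± 0.301. This order of 4 genes was the same in all 8 libraries. It holds for FPKM, and CPM is not scaled by gene length. By mean CPM, Scn8a (423) was above Scn2a (396) in the sesame oil libraries and below it (391 and 399) in the DHEA libraries. Scn4a of skeletal muscle and Scn10a and Scn11a of sensory neurons had a mean count of 1.12, 1.88 and 0.625 per library, and Cacna1f of the retina had 2.88, and Cacng1 of skeletal muscle was at 0 in every library but HipR7. The other 39 members had a mean count of at least 10.

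Among the calcium channel alpha1 genes, Cacna1a, which encodes the P/Q-type pore, ranked first in every library with 22.1% ± 0.526 of the summed alpha1 FPKM. Cacna1b (N-type) held 14.8% ± 0.610 and Cacna1e (R-type) 14.4% ± 0.671, and these neighbours changed places between libraries. Cacna1c (L-type) held 12.5% ± 0.738. The T-type genes held 11.7% ± 1.36 for Cacna1h, 9.57% ± 0.810 for Cacna1i and 8.93% ± 0.961 for Cacna1g, and their ranks overlapped between libraries. Cacna1d, the other L-type gene of neurons, was eighth in every library with 5.92% ± 0.565. These ranks depend on the gene lengths behind FPKM, 54709 bases for Cacna1e and 8885 for Cacna1a. By CPM, not scaled by length, Cacna1e was the highest alpha1 gene. Its mean was 538 CPM in the DHEA and 588 in the sesame oil libraries, against 130 and 151 for Cacna1a.

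Scn3b, a sodium channel beta subunit, had 63.2 ± 1.86 FPKM in the DHEA and 63.1 ± 5.77 FPKM in the sesame oil libraries, and Scn2b had 60.9 ± 3.89 and 60.5 ± 2.07 FPKM (SD, n = 4 each). The most abundant auxiliary calcium channel genes by FPKM were Cacna2d3 among alpha2delta subunits, Cacnb3 among beta subunits and Cacng8 among the gamma family. By mean CPM in the sesame oil libraries they were Cacna2d1, Cacnb4 and Cacng7. Most of the gamma family, Cacng8 included, encodes transmembrane AMPA receptor regulatory proteins (TARPs) in neurons. Hcn2 held 63.1% ± 1.96 of the summed HCN FPKM, Hcn3 6.31% ± 1.12 and Hcn4 0.705% ± 0.174, and these genes kept this order in all 8 libraries.

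**Figure D1:**
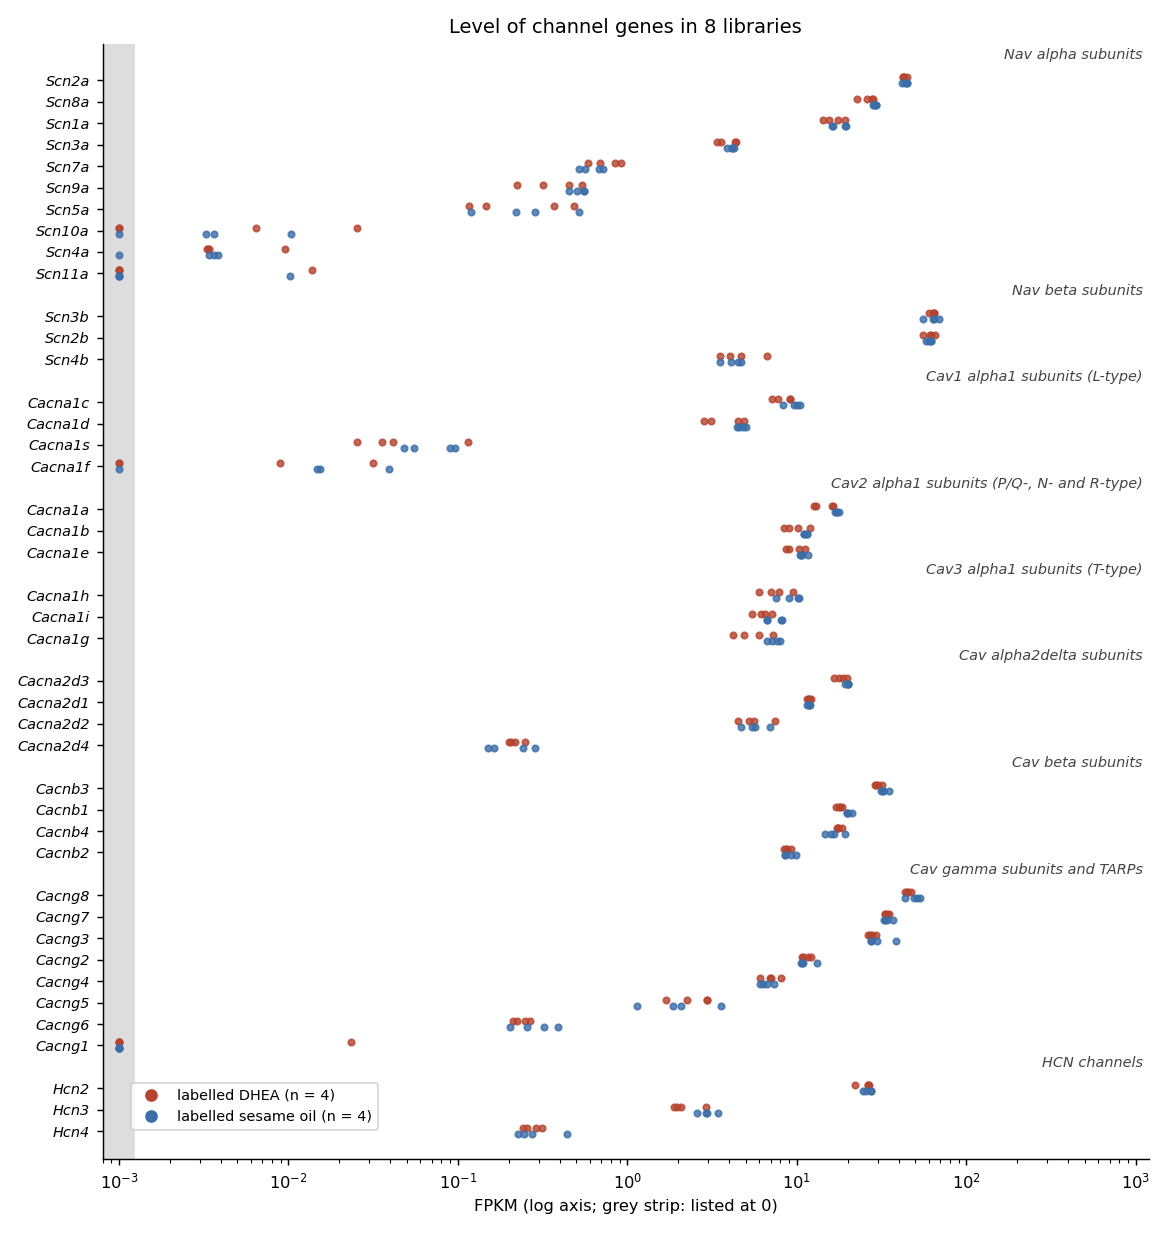
FPKM of 42 channel genes in each library on a log axis, grouped by family and ordered by level, with libraries labelled DHEA in red and sesame oil in blue. Levels spanned from genes listed at 0 (grey strip) to Scn3b at a mean of 63.1, and the groups lay close together for most genes.

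Over all 8 libraries, no channel gene passed an adjusted p of 0.05 between the groups, and in edgeR 0 of all 27612 genes did. The differences at an unadjusted p under 0.05 were then all toward lower levels in the libraries labelled DHEA. They lay mainly in the calcium channel pores. In edgeR's quasi-likelihood test, 8 of 44 channel genes were lower at an unadjusted p under 0.05, where 4.49% of all 27612 genes tested were, and 0 were higher, where 4.82% of all genes were (9.31% in either direction). The 8 genes were Cacna1a, Cacna1c, Cacna1d, Cacna1g, Cacna1h, Cacna1i, Cacnb1 and Hcn3. The smallest adjusted p among members was 0.299 for Cacna1g (edgeR, Benjamini-Hochberg). DESeq2 gave the same 8 genes at an unadjusted p under 0.05. After adjustment it gave 0 of the 44 members and 154 of all genes tested. Where the mean count reached 10, 6.26% of all genes were lower, against 20.5% of the 39 channel genes at that level. The log2 fold change was below 0 in 26 of 44 members, where 48.8% of all genes were below 0, and the members' median was -0.04 against 0.01 for all genes tested. None of the 44 had an unadjusted p under 0.05 with a fold change of 2 or more, where 1.6% of all genes did. In bulk tissue, fewer cells of a type and less RNA per cell cannot be told apart.

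**Figure D2:**
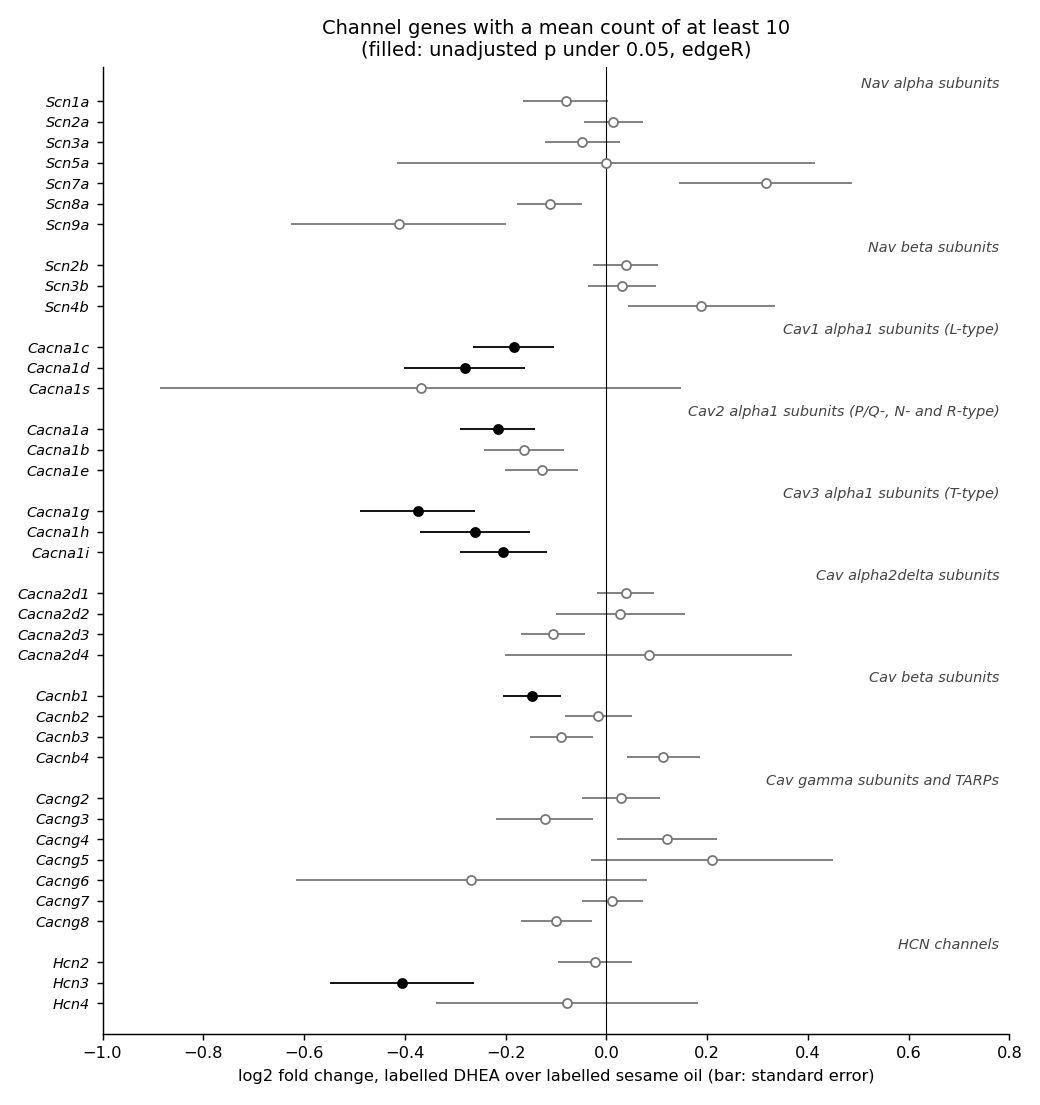
Log2 fold change of 37 channel genes whose mean count reached 10, libraries labelled DHEA over sesame oil, with the standard error as a bar, and filled points have an unadjusted p under 0.05 in edgeR. The 9 calcium channel alpha1 genes shown all lie left of 0, and the sodium channel genes lie on both sides of it.

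All 8 abundant calcium channel alpha1 genes had a log2 fold change below 0, and 6 of the 8 had an unadjusted p under 0.05 in edgeR. Of all genes whose mean count reached 10, 46.5% were below 0 and 6.26% were lower at that threshold. Cacna1s, with a mean count of 14.6, was not counted among the 8. It differed by -0.37 (edgeR unadjusted p = 0.486). In limma on log2(FPKM + 1), 2 of the 8 had an unadjusted p under 0.05, Cacna1a and Cacna1g, with a median of -0.22. With GC content and length offsets together 3 did in edgeR, with a median of -0.14. The median of these 8 was -0.21 in the edgeR fit without offsets, against 0.01 for all genes whose mean count reached 10. All 3 T-type genes, both abundant L-type genes and Cacna1a of the P/Q-type were among the 6. With 1 library left out, the count ran from 2 without HipR4 to 8 without HipR7. It was 3 without HipR3 or HipR10.

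Cacna1g, a T-type pore of thalamic and hippocampal neurons, stood at 49.0, 42.7, 70.6 and 58.1 CPM in HipR3, HipR4, HipR7 and HipR11. It stood at 77.7, 68.4, 64.7 and 74.9 CPM in HipR5, HipR9, HipR10 and HipR16. HipR3 and HipR4 were lowest and HipR11 also lay below the sesame oil range. HipR7 lay inside that range, so the groups overlapped. The log2 fold change was -0.37 (SE 0.11, edgeR unadjusted p = 0.00415, adjusted p = 0.299), and a two-sided exact permutation test on CPM gave p = 0.0857.

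Cacna1a stood at 117, 116, 144 and 142 CPM in the DHEA libraries and at 149, 146, 153 and 157 in the sesame oil libraries, in the same order of libraries. All 4 DHEA values lay below all 4 sesame oil values, HipR7 by a narrow margin. Cacna1a differed by -0.22 on the log2 scale (SE 0.07, edgeR unadjusted p = 0.00967, adjusted p = 0.372), and the two-sided exact permutation p of 0.0286 is the smallest that 4 against 4 libraries can give. Groups that did not overlap and were lower in DHEA were found for 2 channel genes, Cacna1a and Cacnb1, and for 2.62% of all genes tested. None of the 44 was higher in DHEA without overlap, where 2.42% of all genes were.

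The other T-type genes were lower by smaller amounts. Cacna1h stood at 77.9, 66.4, 84.0 and 102 CPM in the DHEA libraries and 96.4, 109, 109 and 81.8 in the sesame oil libraries, with a log2 fold change of -0.26 (SE 0.11, edgeR unadjusted p = 0.0278). Cacna1i stood at 62.3, 55.1, 70.3 and 63.3 CPM against 79.5, 64.7, 65.5 and 79.6, with a log2 fold change of -0.20 (SE 0.09, unadjusted p = 0.0294). The groups overlapped for both genes, and HipR4 was lowest for each. A two-sided exact permutation test on CPM gave p = 0.171 for Cacna1h and 0.143 for Cacna1i. The call for Cacna1h was lost without HipR3 (unadjusted p = 0.0552), HipR4 (0.0841), HipR9 (0.0920) or HipR10 (0.0895), and that for Cacna1i without HipR4 (0.0779), HipR5 (0.112) or HipR16 (0.0938). Robust moderation (unadjusted p = 0.129) and edgeR's own filter on low counts (0.0582) also ended the call for Cacna1h.

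Of the L-type genes, Cacna1d, whose channel opens at more negative voltages than that of Cacna1c, stood at 49.9, 55.9, 83.1 and 77.5 CPM in the DHEA libraries. It stood at 76.3, 82.1, 86.4 and 78.9 CPM in the sesame oil libraries. Only HipR3 and HipR4 lay below the sesame oil range, and the log2 fold change was -0.28 (SE 0.12, edgeR unadjusted p = 0.0309). Cacna1c stood at 126, 118, 144 and 144 CPM against 157, 129, 164 and 153, a log2 fold change of -0.18 (SE 0.08, unadjusted p = 0.0355). On CPM, the two-sided exact permutation p was 0.2 for Cacna1d and 0.143 for Cacna1c. The call for Cacna1d was lost without HipR3 (-0.17, unadjusted p = 0.118), HipR4 (0.0800), HipR9 (0.0567) or HipR10 (0.0772). That for Cacna1c was lost without HipR3 (unadjusted p = 0.0784), HipR4 (0.0921), HipR5 (0.0892), HipR10 (0.127) or HipR16 (0.0570). Cacna1d also missed the threshold with robust moderation (unadjusted p = 0.158), a filter at 10 counts (0.0565) and edgeR's own filter on low counts (0.0697).

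The N-type and R-type genes missed the unadjusted threshold in the edgeR fit of all 8 libraries with TMM. Cacna1b differed by -0.16 (SE 0.08, edgeR unadjusted p = 0.0548) and Cacna1e by -0.13 (SE 0.07, unadjusted p = 0.0934). Cacna1b passed it with RLE scaling (unadjusted p = 0.0444), robust moderation (0.0395) and thinned counts (0.0404), and both genes passed it without HipR7 (0.00101 and 0.0122). In both, HipR3, HipR4 and HipR11 lay below the sesame oil range and HipR7 lay at 137 and 608 CPM, inside or above it. Cacna1f, with a mean count of 2.88, was too low to compare.

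The summed alpha1 level was also lowest in HipR3 and HipR4, and HipR11 lay below the sesame oil range as well. It was 1092, 1040, 1341 and 1261 CPM in HipR3, HipR4, HipR7 and HipR11 and 1327, 1301, 1406 and 1339 CPM in HipR5, HipR9, HipR10 and HipR16. Without HipR3 and HipR4, the 8 abundant alpha1 genes were all still below 0, with a median of -0.08, but 0 of them had an unadjusted p under 0.05 in edgeR. In that fit Cacna1g differed by -0.16 (unadjusted p = 0.099) and Cacna1a by -0.08 (unadjusted p = 0.138). Cacna1d differed by -0.02 (unadjusted p = 0.785), Cacna1c by -0.08 (0.354), Cacna1h by -0.10 (0.386) and Cacna1i by -0.12 (0.212). That fit held 2 libraries against 4, and the fitted differences were also smaller in it.

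**Figure D3:**
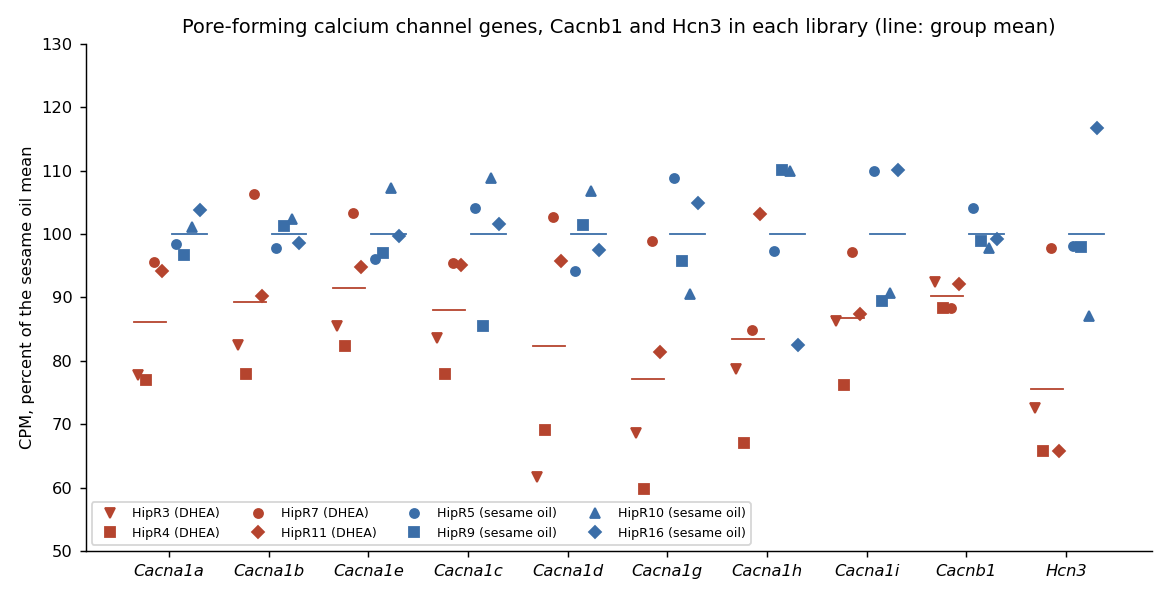
CPM of 8 calcium channel alpha1 genes, Cacnb1 and Hcn3 in each library as a percent of the sesame oil mean, with group means as lines. HipR3 and HipR4 are the lowest points for most alpha1 genes, while all 4 DHEA libraries lie together for Cacnb1, where all were between 96.1 and 101 CPM.

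Among the 16 auxiliary calcium channel genes, 7 had a log2 fold change below 0 and 1 had an unadjusted p under 0.05. Of all genes tested, 48.8% were below 0 and 9.31% had an unadjusted p under 0.05 (4.49% lower). A single gene of 16 is near that share. Cacnb1, a beta subunit found in brain as well as skeletal muscle, stood at 101, 96.2, 96.1 and 100 CPM in the DHEA libraries and 113, 108, 106 and 108 in the sesame oil libraries. The groups did not overlap and HipR3 and HipR4 did not stand out. For Cacnb1 the two-sided exact permutation p on CPM was 0.0286, the smallest that 4 against 4 libraries can give. Its log2 fold change was -0.15 (SE 0.06, edgeR unadjusted p = 0.0196, adjusted p = 0.428), and it was -0.16 (unadjusted p = 0.0136) without HipR3 and HipR4. Without HipR5 it was -0.13 (unadjusted p = 0.0701), with an offset for GC content -0.10 (unadjusted p = 0.0940), and with GC content and length offsets together -0.09 (unadjusted p = 0.110).

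The auxiliary genes most abundant by FPKM missed the threshold in edgeR over all 8 libraries. Cacna2d3 differed by -0.11 (95% interval -0.24 to 0.03), Cacnb3 by -0.09 (-0.22 to 0.04) and Cacng8 by -0.10 (-0.25 to 0.05) on the log2 scale. Without HipR3 and HipR4, Cacnb3 differed by -0.15 (edgeR unadjusted p = 0.0243) and Cacng8 by -0.17 (unadjusted p = 0.0324). In limma on log2(FPKM + 1) over all 8 libraries, Cacna2d3 (-0.13, unadjusted p = 0.0317) and Cacnb3 (-0.11, unadjusted p = 0.0251) passed the threshold. The 6 TARP genes had a median of 0.02, and 0 of them had an unadjusted p under 0.05 in edgeR.

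No sodium channel gene had an unadjusted p under 0.05 in edgeR or DESeq2 over all 8 libraries without offsets. Scn9a, best known from peripheral neurons, passed it with an offset for GC content (-0.46, unadjusted p = 0.0496), and without HipR7 or HipR11, and Scn8a passed it without HipR11 (-0.14, unadjusted p = 0.0468). Scn2a stood at 420, 399, 392 and 386 CPM in the DHEA libraries and 402, 375, 395 and 410 in the sesame oil libraries. The log2 fold change of Scn2a was 0.01 (95% interval -0.11 to 0.14). Scn8a differed by -0.11 (-0.25 to 0.02), Scn1a by -0.08 (-0.26 to 0.10) and Scn3a by -0.05 (-0.21 to 0.11). The beta subunit genes Scn2b, Scn3b and Scn4b differed by 0.04, 0.03 and 0.19, with intervals that include 0.

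Without HipR3 and HipR4, Scn4b, a beta subunit of resurgent current, was higher by 0.43 (edgeR unadjusted p = 0.00819). HipR11 stood at 31.3 CPM, and HipR7, at 22.1 CPM, lay inside the sesame oil range of 16.6 to 22.4 CPM. With HipR11 alone left out, Scn4b differed by -0.01 (unadjusted p = 0.924). Scn7a, a sodium sensor of glia and other cells, was higher by 0.50 (unadjusted p = 0.0137) without HipR3 and HipR4. Over all 8 libraries these genes differed by 0.19 (unadjusted p = 0.212) and 0.32 (unadjusted p = 0.0832).

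The ratio of summed alpha1 to summed sodium channel alpha FPKM was 0.657, 0.663, 0.801 and 0.754 in the DHEA libraries and 0.795, 0.828, 0.848 and 0.775 in the sesame oil libraries. The means were 0.719 ± 0.0706 and 0.812 ± 0.0327 (SD, n = 4 each). HipR3 and HipR4 were lowest, HipR11 also lay below the sesame oil range and HipR7 lay within it.

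Some sodium channel genes lie side by side. In RefSeq gene order Scn1a, Scn9a and Scn7a follow each other on chromosome 2, and their log2 fold changes were -0.08, -0.41 and 0.32, in the fit of all 8 libraries. Without HipR3 and HipR4 they were 0.03, -0.07 and 0.50. The strand setting of the counting was not given in the sources used here, so reads of overlapping or antisense transcripts, and of near-identical family members, could not be told apart.

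Of the HCN genes, only the low Hcn3 had an unadjusted p under 0.05. Hcn3 stood at 7.94, 7.21, 10.7 and 7.20 CPM in the DHEA libraries and 10.7, 10.7, 9.53 and 12.8 in the sesame oil libraries. HipR7 lay inside the sesame oil range and the other 3 DHEA libraries below it. The log2 fold change was -0.41 (SE 0.14, edgeR unadjusted p = 0.0111, adjusted p = 0.385), and -0.30 (unadjusted p = 0.0959) without HipR3 and HipR4. Over all 8 libraries, a two-sided exact permutation test on CPM gave p = 0.0571.

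Hcn2, a broadly expressed neuronal HCN gene, was close between the groups, with a log2 fold change of -0.02 (95% interval -0.18 to 0.13). Hcn4, the pacemaker gene of the heart, had a mean of 0.286 FPKM and differed by -0.08 (-0.62 to 0.47).

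The upstream sequence of 3 of the genes lower at an unadjusted p under 0.05 is shown because it differs in GC boxes, a motif of Sp-family factors. The sequences are the 250 bases before a RefSeq transcription start, from GRCm38.p6, a different build from that used for the counts. GC boxes (GGGCGG on either strand, overlapping matches counted) are in capitals. Cacnb1 (chr11:98022628-98022877, minus strand), at the first of its 2 starts, holds 5 and was chosen for them, as the other start holds 0. Cacna1c at the second of its 3 starts (chr6:119108496-119108745, minus strand) holds 6 and was chosen for them, as the other starts hold 0. Cacna1i, with 1 start (chr15:80286988-80287237, plus strand), holds 0. Cacna1d, also lower at that threshold, was examined in the same way and is not shown. It holds 0 at the first and 5 at the second of its 2 starts.
Cacnb1: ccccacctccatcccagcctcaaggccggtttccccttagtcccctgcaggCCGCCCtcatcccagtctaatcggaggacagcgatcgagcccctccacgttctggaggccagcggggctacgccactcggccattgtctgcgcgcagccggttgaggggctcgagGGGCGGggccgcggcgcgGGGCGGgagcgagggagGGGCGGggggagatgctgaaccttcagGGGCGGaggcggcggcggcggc
Cacna1c: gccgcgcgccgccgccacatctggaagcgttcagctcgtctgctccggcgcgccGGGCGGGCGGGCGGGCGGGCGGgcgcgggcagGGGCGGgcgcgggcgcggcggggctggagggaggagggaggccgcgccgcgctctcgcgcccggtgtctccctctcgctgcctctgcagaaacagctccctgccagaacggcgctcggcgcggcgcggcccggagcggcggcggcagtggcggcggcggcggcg
Cacna1i: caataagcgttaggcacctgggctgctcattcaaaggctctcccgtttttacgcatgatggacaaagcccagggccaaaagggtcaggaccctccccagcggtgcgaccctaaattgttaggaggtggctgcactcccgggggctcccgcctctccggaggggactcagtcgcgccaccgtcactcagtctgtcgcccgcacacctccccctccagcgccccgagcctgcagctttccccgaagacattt

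A GC box was present in 39.5% of the 43 upstream windows of the 32 members with an entry, against 32.7% of all 32851 windows of this length. The half-site AGAACA, shared by the androgen and glucocorticoid receptors, was present in 16.3% against 16.1%. TATAAA was present in 4.65% against 12.4%, and TGACGTCA, the cyclic AMP response element, in 0 member windows against 1.55%. A match describes the letters only.

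Genes whose products bind, cluster or regulate these channels were also examined. Of 39 listed partner genes, 37 were tested and 2 (Nalf1 and Nalf2) had no row under these symbols and were not matched to any other symbol. Of the 37, 6 were lower and 1 was higher at an unadjusted p under 0.05 in edgeR, and 0 had an adjusted p under 0.05. In DESeq2, 1 of them, Fgf11, had an adjusted p under 0.05 (0.0271), as did 154 of all 27612 genes tested. All 37 had a mean count of at least 10, where 6.26% of all genes were lower and 6.85% higher. The groups did not overlap, with DHEA lower, for 5 of the 37 and for 2.62% of all genes tested. These 5 were Fgf11, Ank2, Sptbn4, Akap5 and Unc79. The number higher without overlap was 0, where 2.42% of all genes were.

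Sptbn4, a spectrin that anchors sodium channels at the axon initial segment, stood at 121, 108, 162 and 164 CPM in the DHEA libraries and 175, 171, 177 and 183 in the sesame oil libraries. All DHEA values were below all sesame oil values, HipR3 and HipR4 by the most, and the log2 fold change was -0.35 (SE 0.10, edgeR unadjusted p = 0.0034). Fgf11, an intracellular FGF that binds sodium channels, stood at 43.7, 38.9, 40.6 and 39.9 CPM against 53.8, 47.4, 46.9 and 49.9, with a log2 fold change of -0.28 (SE 0.07, unadjusted p = 0.000993). Its 4 DHEA values lay together below the sesame oil range. Ank2, an ankyrin, and Nrcam, an adhesion molecule of the node, differed by -0.13 each (unadjusted p = 0.048 and 0.0484). With an offset for gene length they differed by -0.08 (edgeR unadjusted p = 0.187) and -0.09 (0.171). Of the 8 fits that left out 1 library, Ank2 kept the threshold in 1 and Nrcam in 2. Ank3 (ankyrin-G) and Nfasc, also of the axon initial segment, differed by -0.09 (unadjusted p = 0.159) and -0.03 (unadjusted p = 0.668).

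Unc79, a subunit of the sodium leak channel complex, stood at 66.0, 61.9, 83.4 and 76.7 CPM in the DHEA libraries and 89.1, 85.6, 91.1 and 92.2 in the sesame oil libraries, without overlap. Its log2 fold change was -0.31 (SE 0.08, edgeR unadjusted p = 0.00121, adjusted p = 0.245). Rimbp2, which tethers calcium channels at the active zone, differed by -0.23 (unadjusted p = 0.016). Fgf12, of the same family as Fgf11, was the only partner higher at this threshold, by 0.19 (unadjusted p = 0.0251). Without HipR3 and HipR4, 5 partners were lower and 0 higher in edgeR. There Fgf11 differed by -0.31 (unadjusted p = 0.00104), Unc79 by -0.17 (0.0145) and Sptbn4 by -0.12 (0.0315). Akap5 (-0.18, 0.0105) and Nedd4l (-0.14, 0.0483) also passed there, but not in the edgeR fit of all 8 libraries. Ank2 (0.0804), Nrcam (0.0616), Rimbp2 (0.312) and Fgf12 (0.344) lost the threshold. The 3 HCN partners gave 0 with an unadjusted p under 0.05.

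Potassium channel genes, taken by the symbol start Kcn, gave 7 lower (7.37%) and 3 higher (3.16%) of 95 tested at an unadjusted p under 0.05. Of all genes tested, 4.49% were lower and 4.82% higher. In either direction it was 10.5% of the potassium channel genes, near the 9.31% of all genes. The difference between the potassium channel genes and the 44 members was not tested.

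Markers of other cell types moved with the labels. All 11 oligodendrocyte and myelin genes were higher in the libraries labelled DHEA at an unadjusted p under 0.05 in edgeR, with a median log2 fold change of 0.38. Their summed level was 6935, 8742, 6863 and 7167 CPM in the DHEA libraries and 5554, 6644, 5518 and 4675 CPM in the sesame oil libraries, and Mbp, a myelin protein, was the most abundant. Every DHEA sum was above every sesame oil sum, with HipR4 the highest.

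Glial and vascular lists were also higher in part. At the same threshold 5 of 8 astrocyte genes (most abundant Aldoc), 4 of 7 microglial genes, 3 of 7 endothelial genes (Flt1), 1 of 6 oligodendrocyte precursor genes (Tnr the most abundant, Pdgfra the one higher) and 1 of 7 mural genes (Rgs5) were higher, and none of them lower. Over all genes with a mean count of 10 or more, 6.85% were higher, and a single gene in so short a list is little above that share. Of 7 thalamic genes 1, Rora, was higher at this threshold, and 6 of 7 had a log2 fold change above 0, with a median of 0.20. Their sum was 156, 183, 175 and 188 CPM in the DHEA libraries and 163, 159, 140 and 158 CPM in the sesame oil libraries.

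Neuronal lists held no gene that was higher at this threshold. Over all genes with a mean count of 10 or more, 6.26% were lower and 6.85% higher. Of 9 pan-neuronal genes (most abundant Snap25), Rbfox3 (-0.16, unadjusted p = 0.00781) and Nefm (-0.18, unadjusted p = 0.0158) were lower. Their sum was 7538, 7408, 7148 and 6842 CPM in the DHEA libraries and 7133, 6916, 7013 and 7563 CPM in the sesame oil libraries, so the groups overlapped and HipR3 and HipR4 were not low. Of 8 principal neuron genes (Slc17a7) and 8 interneuron genes (Gad1), 0 had an unadjusted p under 0.05 in edgeR. Of the principal neuron genes, 6 of 8 had a log2 fold change below 0, with a median of -0.08. Their sum was 2328, 2258, 2208 and 2262 CPM in the DHEA libraries and 2360, 2329, 2554 and 2305 CPM in the sesame oil libraries, with overlap. When libraries were scaled to the pan-neuronal sum in place of TMM, the 8 abundant alpha1 genes were all still below 0 with a median of -0.22, and 4 of them had an unadjusted p under 0.05. The part of the glial and principal neuron genes in the channel results was not tested.

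**Figure D4:**
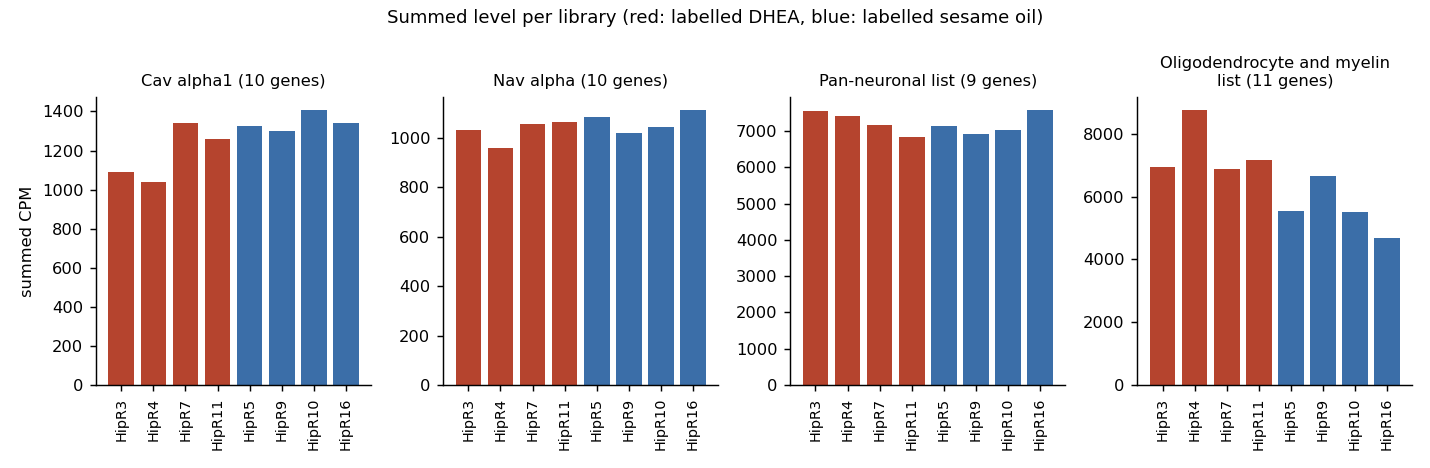
Summed CPM per library of calcium channel alpha1 genes, sodium channel alpha genes, the pan-neuronal list and the oligodendrocyte and myelin list, in red for libraries labelled DHEA and blue for sesame oil. The alpha1 sum is lowest in HipR3 and HipR4, at 1092 and 1040 CPM, and the myelin sum is highest in HipR4, at 8742 CPM.

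Lists for tissues beyond the hippocampus were also summed. The choroid plexus sum (most abundant Ttr) ran from 93.9 CPM in HipR4 to 4493 CPM in HipR3, with 0 of 6 genes at an unadjusted p under 0.05. Of 7 pituitary genes (Prl the most abundant), Gh and Prl were lower in DHEA, and their level was highest in HipR10, at 6.95 and 16.6 CPM, against at most 0.0821 and 0.219 CPM in the DHEA libraries. The skeletal muscle list (Acta1) gave 0 of 6, with sums of 4.24 to 5.91 CPM.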

How the data were processed

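The authors trimmed reads with fastp, aligned them with HISAT2 and counted them with HTSeq on GRCm39, per the submitters' processing notes, which give no versions. They deposited raw counts and FPKM per gene. The deposited FPKM equal counts divided by the library total and 1 length per gene (25234 of 25234 genes within 0.1%). Total counts per library were 31483772 to 38038361.

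The 27612 of 29442 genes with at least 1 count were fitted with edgeR 4.0.16 in R 4.3.3 (TMM, prior count of 0.125, quasi-likelihood test, no covariates), with Benjamini-Hochberg adjustment over all of them. CPM are TMM-normalized. The standard error was the log2 fold change divided by the square root of F. For single levels, exact permutation (two-sided) ran over the 70 allocations of the libraries. Alternatives used DESeq2 1.42.0, limma 3.58.1 on log2(FPKM + 1) and log2(FPKM + 0.1), RLE scaling, filters on low counts, GC content and length offsets, thinned counts and leaving out each library. Scaling to the pan-neuronal list, both offsets together, and leaving out HipR3 and HipR4 were added after seeing the data. GC content came from GENCODE vM21 transcripts for 92.7% of the 16813 genes whose mean count reached 10, and for all 44 members. The fits were tested on simulated data.

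Named genes were members with an unadjusted p under 0.05, the most abundant member of each family by FPKM, the HCN genes, Scn1a, Scn2a, Scn3a, Scn8a, the sodium channel beta subunits, Cacna1a to Cacna1i, partners and markers with an unadjusted p under 0.05, and the most abundant gene of each marker list. Some genes this rule names are not reported here. Other genes named with values (Scn7a, Scn9a, Cacna1s, Ank3, Nfasc, Akap5, Nedd4l and members near 0 counts) were chosen after their values were seen. Members and lists were chosen with earlier results of these data known.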

Additional observations from a re-analysis of the deposited data

Results flagged for a closer look

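Of 46 sets of 4 library values examined for the channel genes reported here, 0 held a library far from the others by Dixon's criterion, where chance gives about 2.3. With 4 values a set, this criterion cannot find 2 libraries that deviate together, as HipR3 and HipR4 did, so the count says nothing about them.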

How the results depend on the processing

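For the 8 genes with an unadjusted p under 0.05, all 176 values under the alternatives kept their direction, and 47 lost the threshold. Cacna1a, Cacna1g and Hcn3 kept it in each of the 8 fits that left out 1 library. Leaving out 1 library gave 5 to 12 channel genes, with 5 without HipR3, HipR5 or HipR10 and 12 without HipR7. Over all genes tested, 2571 passed the threshold in the fit of all 8 libraries. Without HipR3, HipR5 or HipR10 it was 1938, 1786 and 2041, and without HipR7 it was 3667. Without HipR7, 93 of all genes passed an adjusted p of 0.05 in edgeR, Cacna1g among them. The fits that left out 1 library gave 4 to 8 partner genes in place of 7, with 4 without HipR3 or HipR5. Among alternatives chosen after seeing the data, GC content and length offsets together gave 5 channel genes and 2414 of all genes. Leaving out both HipR3 and HipR4 also gave 5, with 3 lower and 2 higher, where 2135 of all genes passed. Of these 5 channel genes, 1, Cacnb1, was among the original 8. Without HipR4 alone, 5 channel genes were lower and 2 higher. With no fold change threshold, the study's rule gave 8 channel genes in place of 0. The cause of these shifts was not tested. Genes with a mean count under 10 could not be compared at this depth.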
